A study of Mus musculus with 8 samples.

Results

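The genes described here are 42 genes of the DNA replication machinery, taken as a fixed list of symbols and measured in mouse medulloblastoma. The list was chosen with earlier results of these data known. Shares of members set beside shares of all genes are therefore descriptions. All 42 were found among the 20608 gene symbols of the bulk read counts and among the 27998 genes of the single-cell matrices. By role they comprise 6 subunits of the MCM helicase, 5 origin licensing genes, 8 helicase activation genes, 5 clamp and clamp loader genes, 7 polymerase and primase genes, 2 single-strand binding genes, 3 genes of Okazaki fragment maturation and uracil repair, 3 nucleotide supply genes and 3 genes of chromatin assembly and remodelling.

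The mice of every library were Patched 1 deficient. Patched 1 restrains Hedgehog signalling, and its loss gives tumours of the cerebellar granule neuron lineage. Sorted astrocytes of these brain tumours gave 3 bulk RNA-seq libraries of stroma B and 3 of stroma A, and tumour cells gave 1 single-cell library of a relapsed tumour, taken at 3 weeks, and 1 of a primary tumour. The study compared relapsed with primary medulloblastoma, in single cells and in astrocytes, but no label ties stroma B or stroma A to either one, so neither is read as such here. For the single cells labelled relapsed in title and source, 1 further label reads primary. Title and source were followed. The labels used here give no age, strain, allele or number of animals, and do not say whether the bulk libraries came from separate mice, so that p-values measure the spread between these libraries alone.

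A cell copies its genome once per division. In G1 the origin recognition complex, with Cdc6 and Cdt1, loads the MCM helicase onto origins, and in S phase the kinase Cdc7 with its activator Dbf4 and the factors Cdc45, GINS and Mcm10 start the helicase, after which primase, polymerases, the sliding clamp Pcna and its loader copy the strands. Most of these genes are transcribed at the G1 to S transition by E2F factors, and in the developing cerebellum Hedgehog signalling drives granule neuron precursors through that cycle. Genes of G2 and mitosis are often repressed outside those phases through a promoter element called CHR.

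The promoters of several members hold letters of the E2F type. The stretches below were picked among promoters with a match, and a link between letters and cell cycle profile was not tested. Pcna, Rrm2 and Tyms, which had the most common cycle peak, held no E2F-type letters in their windows. RefSeq promoter windows of 300 bases (250 before to 50 after a gene start, build GRCm38.p6) were present for 34 of the 42 members. Any of the letters TTTCCCGC, TTTGGCGC, TTTCGCGC or TTTGCCGC, on either strand, stood in a window of 13 of the 34 members (38.2%), against 704 of all 27025 genes of the same table (2.61%). The CHR letters TTTGAA, on either strand, stood in 7 of the 34 members (20.6%), against 20.2% of all genes. Besides Dbf4 these were Cdc45, Cdc7, Fen1, Gins3, Mcm2 and Pold2, none of which shared the cycle peak of Dbf4 described below. The matches do not overlap between the 2 motifs, and a match is a description of letters and not a binding site. In the following, each stretch reads 5′ to 3′ along the gene, with E2F-type letters in capitals for the first 6 genes and CHR letters in capitals for Dbf4. Where matches on opposite strands overlap they form 1 run of capitals. Gins3 also has its CHR letters in capitals, at the right end of its stretch. They lie at chr1:128359736-128359825 (minus strand) for Mcm6, chr8:75109344-75109403 (plus) for Mcm5, chr11:98908001-98908060 (plus) for Cdc6, chr4:108579394-108579453 (plus) for Orc1, chr19:38930900-38930959 (plus) for Hells, chr8:95633489-95633548 (plus) for Gins3 and chr5:8422711-8422776 (minus) for Dbf4.
Mcm6: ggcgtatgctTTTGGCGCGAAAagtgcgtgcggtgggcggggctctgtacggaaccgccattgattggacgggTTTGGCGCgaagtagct
Mcm5: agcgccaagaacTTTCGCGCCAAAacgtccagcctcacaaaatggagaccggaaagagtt
Cdc6: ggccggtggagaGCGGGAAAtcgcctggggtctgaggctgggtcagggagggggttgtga
Orc1: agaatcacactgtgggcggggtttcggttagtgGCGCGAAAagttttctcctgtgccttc
Hells: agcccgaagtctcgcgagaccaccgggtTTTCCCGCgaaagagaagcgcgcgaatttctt
Gins3: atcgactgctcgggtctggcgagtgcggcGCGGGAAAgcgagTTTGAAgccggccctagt
Dbf4: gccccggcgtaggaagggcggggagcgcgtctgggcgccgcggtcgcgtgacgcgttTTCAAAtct

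The bulk libraries held between 6718165 and 11798735 counted reads. Stroma B replicate 3 stood apart from the other stroma B libraries in tumour and glial genes: levels of Gfap, the astrocyte intermediate filament, in CPM (reads of a gene relative to all reads of its library, with library sizes scaled by TMM factors) were 700, 963 and 81.4 in replicates 1 to 3 of stroma B, against 79.9, 37.4 and 146 in stroma A, and the oligodendrocyte precursor marker Pdgfra stood at 805, 485 and 3607 CPM in stroma B, against 7606, 4285 and 3988 CPM in stroma A. The sorted cells were labelled astrocytes, and the summed level of 12 astrocyte markers was 4209 to 11820 CPM in stroma B and 2904 to 8138 CPM in stroma A, beside 2115 to 11779 CPM in stroma B and 11678 to 20428 CPM in stroma A for 10 oligodendrocyte precursor markers. Ptch1 RNA was found in all 6 libraries, at 541, 516 and 118 CPM in stroma B and 143, 70.3 and 111 CPM in stroma A. No library without the deficiency was at hand to set it against. In the single-cell data the relapsed library held 7852 barcodes with a median of 7230 UMIs (unique molecular identifiers, the counted RNA molecules) and the primary library 9164 barcodes with a median of 5404. The 2 libraries shared 93 barcodes, and leaving these out changed none of the counts of members by more than 1.

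Replication genes were more abundant in stroma B than in stroma A. The 42 members together took 0.538%, 0.324% and 0.325% of the reads in the stroma B libraries and 0.221%, 0.208% and 0.170% in the stroma A libraries. All 42 passed the filter on low counts, and all 42 were fitted higher in stroma B, against 48.4% of the 14176 genes tested, with a median log2 fold change of 1.02 where the median over all genes was -0.03. Of these, 3 passed the test: Rrm2, Dbf4 and Pole, each higher in stroma B at an adjusted p under 0.05 in edgeR's quasi-likelihood test, where 0.388% of all genes did so and 0.663% passed in either direction. None was called lower, where 0.275% of all genes were. The groups did not overlap for 35 of the 42, each with its lowest stroma B library above its highest stroma A library, as for 14.2% of all genes. Before adjustment 32 of the 42 had a p under 0.05 and were higher in stroma B, where 11.2% of all genes did. For bulk RNA, more cells in cycle and more RNA of these genes per cell cannot be told apart.

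**Figure D1:**
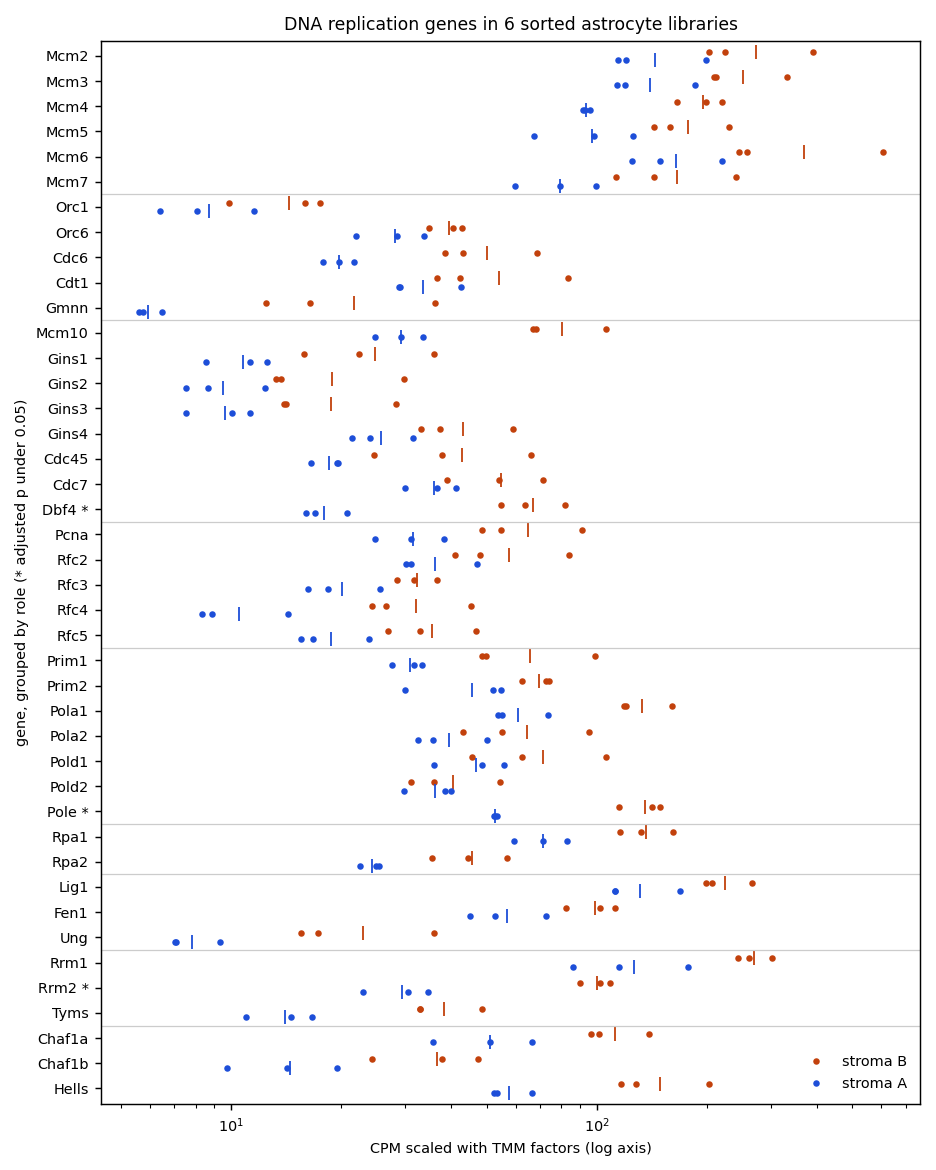
Levels of the 42 genes in CPM scaled with TMM factors (log axis) in each sorted astrocyte library, with stroma B in orange drawn above stroma A in blue for each gene; points are libraries, vertical ticks are means of 3, and gray lines divide the roles. All 3 stroma B points lie right of all 3 stroma A points for 35 genes, and Rrm2, Dbf4 and Pole, marked with an asterisk, passed the adjusted test.

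Rrm2 encodes the regulatory subunit of ribonucleotide reductase, which makes deoxyribonucleotides. Rrm2 RNA stood at 109, 102 and 89.9 CPM in stroma B, against 30.5, 23.0 and 34.6 CPM in stroma A. All stroma B libraries lay well above all stroma A libraries, with a log2 fold change of 1.77 (SE 0.22, adjusted p = 0.0383, edgeR). Dbf4, the activating subunit of the Cdc7 kinase that fires origins, had the largest fold change of the 42. It stood at 82.0, 63.8 and 54.7 CPM in stroma B, against 17, 20.8 and 16.1 CPM in stroma A, a log2 fold change of 1.90 (SE 0.24, adjusted p = 0.0394, edgeR). Its partner Cdc7 differed less: 71.3, 54.1 and 39.1 CPM in stroma B and 36.6, 30.0 and 41.2 CPM in stroma A overlapped, and the log2 fold change of 0.61 (SE 0.27) did not pass (adjusted p = 0.248, edgeR). Pole, the catalytic subunit of the leading-strand polymerase, was at 142, 149 and 115 CPM in stroma B, against 53.5, 52.4 and 52.6 CPM in stroma A. Its stroma A libraries were almost level with each other, and the log2 fold change was 1.36 (SE 0.18, adjusted p = 0.0406, edgeR).

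The next 10 members by p did not pass the adjusted threshold, and none of them had overlapping groups. Among the helicase genes, Mcm4 was at 220, 166 and 199 CPM in stroma B and 96.2, 93.1 and 91.8 CPM in stroma A (log2 fold change 1.06, SE 0.18, adjusted p = 0.0590, edgeR). Mcm10, which helps to start the helicase, was at 106, 66.9 and 68.5 CPM in stroma B and 29.1, 33.4 and 24.8 CPM in stroma A, with a log2 fold change of 1.47 ± 0.26 (SE). In both genes the stroma A libraries were close together and the stroma B libraries spread further. Cdc6, an origin loader, was at 68.9, 43.1 and 38.4 CPM in stroma B and 19.7, 21.7 and 17.9 CPM in stroma A. Gmnn, whose product geminin blocks Cdt1 after origins have fired, was at 36.2, 16.4 and 12.4 CPM in stroma B and 5.59, 6.47 and 5.73 CPM in stroma A, the second largest fold change of the 42 (log2 1.87, SE 0.46, adjusted p = 0.108, edgeR). For both, stroma B replicate 1 was the highest library.

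Rfc4, a clamp loader subunit, had 45.4, 26.5 and 24.3 CPM in stroma B and 8.33, 14.3 and 8.87 CPM in stroma A. Pola1, the catalytic subunit of the polymerase that extends primers, had 160, 119 and 121 CPM in stroma B and 53.7, 73.8 and 55.3 CPM in stroma A. Rpa1, the large subunit of the single-strand binding protein, had 161, 132 and 116 CPM in stroma B and 83.2, 59.3 and 71.4 CPM in stroma A. The 3 genes kept the groups apart with different margins, at log2 fold changes of 1.61 (SE 0.36) for Rfc4, 1.13 (SE 0.22) for Pola1 and 0.94 (SE 0.21) for Rpa1. Tyms, thymidylate synthase, was at 48.7, 32.8 and 32.9 CPM in stroma B and 16.7, 14.6 and 11.0 CPM in stroma A. Hells, a chromatin remodeller of the S phase, was at 202, 117 and 128 CPM in stroma B and 52.4, 66.6 and 53.5 CPM in stroma A. Chaf1a, a subunit of the complex that puts histones onto new DNA, was at 139, 96.7 and 101 CPM in stroma B and 66.5, 51.2 and 35.7 CPM in stroma A. In each of these 3 genes stroma B replicate 1 was highest and the other two stroma B libraries lay close together, with log2 fold changes of 1.44 (SE 0.28), 1.38 (SE 0.26) and 1.14 (SE 0.28) in the order named. The adjusted p-values of these 10 genes ran from 0.0590 to 0.108.

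By role, the groups were apart for 6 of 6 MCM helicase genes (log2 fold changes of 0.84 to 1.17), for 7 of 8 helicase activation genes (0.61 to 1.90), for 4 of 5 clamp and loader genes (0.67 to 1.61), for both single-strand binding genes (0.91 and 0.94), and for all 3 genes each of Okazaki maturation and uracil repair (0.77 to 1.55), of nucleotide supply (1.09 to 1.77) and of chromatin assembly and remodelling (1.14 to 1.38). They were apart for 3 of 5 licensing genes (0.49 to 1.87) and 4 of 7 polymerase and primase genes (0.17 to 1.36). The 7 members with overlapping groups were Orc1, Cdt1, Cdc7, Rfc2, Pola2, Pold1 and Pold2. Pold2, an accessory subunit of the lagging-strand polymerase, differed least, with 54.5, 35.9 and 31.1 CPM in stroma B and 38.4, 40.1 and 29.7 CPM in stroma A. Its log2 fold change of 0.17 (SE 0.28, adjusted p = 0.751, edgeR) turned to -0.080 without stroma B replicate 1.

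Stroma B replicate 1 carried the most replication RNA: it was the highest of the 6 libraries for 39 of the 42 members, and stroma A replicate 3 was the lowest for 30. Stroma B replicate 3, the library that resembled stroma A in Gfap and Pdgfra, was above every stroma A library for 36 of the 42 members, and stroma B replicate 2 for 39. For these counts of single libraries the matching shares over all genes were not taken, so they are descriptions. The calls depended on the libraries used. Without stroma B replicate 3, 15 members passed the test, and without any other 1 library none did, while the number fitted higher stayed at 41 or 42 and the number with an unadjusted p under 0.05 lay between 22 and 37. Over all genes the calls moved alike, 1342 without stroma B replicate 3 and 0 without any other 1 library (2067 to 3781 genes at an unadjusted p under 0.05). DESeq2 called 22 members and 1797 genes.

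Per length, which the authors' FPKM values allow, levels between the genes spread over more than an order of magnitude. Mcm6 and Pcna were the highest pair in both groups, with Mcm6 at 47.7 ± 23.8 FPKM in stroma B and 19.4 ± 9.38 FPKM in stroma A and Pcna at 43.4 ± 9.77 FPKM in stroma B and 21.1 ± 9.30 FPKM in stroma A (SD, n = 3 each). The 2 genes differed by less than the spread between libraries in either group. Orc1, the licensing subunit made anew in each G1, was lowest in both groups, at 1.28 ± 0.35 FPKM in stroma B and 0.52 ± 0.07 FPKM in stroma A (SD, n = 3 each). All 6 subunits of the MCM helicase ranked within the 11 highest of the 42 in both groups.

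Other replication genes outside the list were also mostly fitted higher in stroma B. Of 41 further genes of the pathway, 38 were fitted higher (48.4% of all genes) and 24 had stroma B wholly above stroma A (14.2%). Their median log2 fold change was 0.71, and 1 passed the adjusted test as higher in stroma B, where 0.388% of all genes did so. The gene that passed was Ticrr, the treslin that links S-phase kinases to helicase activation. It stood at 69.7 CPM in stroma B and 28.6 CPM in stroma A on average (log2 fold change 1.29, SE 0.19, adjusted p = 0.0468, edgeR). Next came Clspn (122 CPM in stroma B and 51.5 CPM in stroma A), Atad5 (130 CPM in stroma B and 59.0 CPM in stroma A) and Dck (55.4 CPM in stroma B and 21.9 CPM in stroma A), with log2 fold changes of 1.24, 1.13 and 1.34 and adjusted p-values of 0.0575 to 0.0608 (edgeR).

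Other lists also differed between stroma B and stroma A, some fitted higher and some lower in stroma B. A list of 54 genes of G2 and mitosis was fitted higher in stroma B for all 54, with 21 past the test, and summed to 10771 to 12113 CPM in stroma B and 4372 to 4918 CPM in stroma A. Of 12 granule precursor markers, 11 were fitted higher and none passed, with sums of 2504 to 6170 CPM in stroma B and 1548 to 2422 CPM in stroma A. Of 12 differentiating granule neuron markers 10 were fitted higher and none passed. They summed to 2281, 2704 and 687 CPM in stroma B and 940, 584 and 613 CPM in stroma A. Of 12 astrocyte markers 10 were fitted higher, all 10 oligodendrocyte precursor markers were fitted lower, and none of either list passed. All 8 oligodendrocyte markers were fitted lower and none passed, with sums of 190 to 708 CPM in stroma B and 1404 to 2367 CPM in stroma A. All 9 microglia and all 8 endothelial markers, 6 of 7 macrophage and 6 of 7 pericyte markers were also fitted lower, with 1 endothelial marker past the test. Stroma A replicate 3, the lowest library for 30 members, was the highest in these lists, which summed to 1835 CPM for microglia, 2234 CPM for macrophages, 825 CPM for endothelium and 1023 CPM for pericytes there, against at most 390, 623, 332 and 275 CPM in any other library. With that library left out, the fold changes of all 42 members still pointed to stroma B (median log2 value 0.89). In stroma B replicate 3 the granule precursor markers summed to 2504 CPM, near the 2422 CPM of stroma A replicate 1. The G2 and mitosis list stood at 11509 CPM in the former and at 4918 CPM in the latter. That pair of libraries was picked after its values were seen. The part of each cell type in the replication gene difference was not tested, neither by this pair nor by leaving out a library.

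In single cells of the granule lineage, the tumour cells and their differentiating progeny, replication genes were sorted by cycle state. The state of each cell was called from 21 S-phase and 54 G2 and mitosis genes that include no member: S where the S score was above 0 and above the G2/M score, G2/M where the G2/M score was above 0 and at least the S score, and otherwise neither. In the relapsed library 19.1% of 6913 lineage cells were in the S state (95% Clopper-Pearson interval 18.2 to 20.1%), 46.1% in the G2/M state (44.9 to 47.3%) and 34.8% in neither (33.7 to 35.9%). In the primary library 14.2% of 7352 cells were in the S state (13.4 to 15%), 34.3% in the G2/M state (33.2 to 35.4%) and 51.5% in neither (50.4 to 52.7%). Lineage cells were thus scored as cycling more often in the relapsed library. With cells thinned to 3000 UMIs, which left out 0 relapsed and 711 primary cells, the shares were 18.9%, 47.6% and 33.5% in the relapsed and 15.4%, 38.1% and 46.5% in the primary library, in the same order of states. With 1 library of each tumour there is no test, cells are not replicates, and all intervals cover counting error only. Within 0.05 of the score threshold lay 714 relapsed and 903 primary cells. Cells of unnamed clusters, 275 relapsed and 605 primary, were outside these lineage shares. Of the unnamed cells 50.2% in the relapsed and 64.6% in the primary library were scored as cycling. How the lineage shares would change with them was not tested.

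Genes outside both scoring lists describe the states. Ccnb1, the mitotic cyclin, was at 386 CPM in G2/M cells, 24.8 CPM in S cells and 7.23 CPM in cells of neither state in the relapsed library, and at 454, 26.0 and 11.9 CPM in the same order in the primary library. The histone gene Hist1h1b, whose RNA is known to build up in S phase, was at 81.6 CPM in G2/M cells, 41.8 CPM in S cells and 2.22 CPM in neither in the relapsed library, and at 93.4, 40.3 and 5.18 CPM in the primary library. RNA of this S-phase histone gene was thus higher in the G2/M state than in the S state, so the states are names for scores and not sharp phases. The lineage cells of the 2 libraries lay in different clusters (clusters 2, 3, 5, 7, 8, 9 and 12 for the relapsed and 0, 1, 4, 6, 11, 13 and 14 for the primary library), although replication and cycle genes had been left out of the clustering.

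The members were most abundant in the S state of both tumours. Together they summed to 5449 CPM in S cells and 3450 CPM in G2/M cells, against 1385 CPM in cells of neither state, in the relapsed library, and to 6602 and 3838 CPM against 1686 CPM in the primary library. A ratio was taken where both states had at least 50 UMIs. In the relapsed library all 40 members compared were higher in S than in neither, as were 47.6% of 8970 genes, and 39 were at least 2-fold higher, as were 3.77%; none was 2-fold lower, as were 3.17%. In the primary library all 41 compared were higher, as were 51.4% of 8551 genes, and 40 were at least 2-fold higher, as were 4.63%; none was 2-fold lower, as were 2.58%. The median log2 ratio of members was 2.04 in the relapsed and 2.01 in the primary library. In G2/M over neither, 39 of 40 members were above 1 in the relapsed library (43.0% of all genes), 28 at least 2-fold (3.94%) and none 2-fold lower (6.76%), and 40 of 41 were above 1 in the primary library (44.5%), 27 at least 2-fold (4.22%) and none 2-fold lower (4.67%). Gins3 and Orc1 in the relapsed library and Orc1 in the primary library had too few UMIs. The states were called from genes that cycle alongside these, so the ratios order the members by timing and are a description with no test.

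Rrm2 had the widest range. It was at 342 CPM in S cells (95% Poisson interval 331 to 353) and 33.1 CPM in neither (30.1 to 36.2) in the relapsed library, 10.3-fold, and at 370 CPM in S (356 to 384) and 33.4 CPM in neither (30.9 to 36.1) in the primary library, 11.1-fold. The next 5 by their mean over both libraries were Mcm10, Cdc45, Cdc6, Tyms and Gmnn, at 6.82-, 8.19-, 6.79-, 7.13- and 6.12-fold in the relapsed and 9.95-, 7.80-, 7.67-, 6.13- and 5.96-fold in the primary library. Cdc45, the helicase cofactor, stood at 65.7 CPM in S and 8.02 CPM in neither in the relapsed library and at 110 CPM in S and 14.1 CPM in neither in the primary library. These 6 genes include both Cdc6, an origin loader, and Gmnn, whose product blocks Cdt1. At the other end, Orc6 had the lowest ratio, at 105 CPM in S and 59.1 CPM in neither (1.78-fold) in the relapsed library and 130 CPM in S and 67.2 CPM in neither (1.94-fold) in the primary library. Gins4, Pold2, Rfc2, Mcm7 and Cdc7 came next, at 2.46-, 2.83-, 2.80-, 2.58- and 2.68-fold in the relapsed and 2.05-, 2.24-, 2.52-, 2.83- and 2.84-fold in the primary library. Subunits of 1 complex thus differed in range: within GINS, Gins2 was at 4.65- and 4.53-fold in relapsed and primary cells where Gins4 was at 2.46- and 2.05-fold.

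The ratio of G2/M over S cells separated Dbf4 from the others. It was above 1 for 2 of 42 members in the relapsed library (Dbf4 and Rrm1), against 47.2% of 9138 genes, and for Dbf4 alone of 41 members in the primary library, against 42.1% of 8591 genes. Dbf4 was also the 1 member at least 2-fold higher in each library (1.37% of all genes in the relapsed, 1.33% in the primary), while 10 members in the relapsed and 14 in the primary library were at least 2-fold lower (1.3% and 1.32% of all genes). Dbf4 was at 122 CPM in G2/M cells, 41.1 CPM in S cells and 13.5 CPM in neither in the relapsed library, and at 91.2, 29.1 and 10.4 CPM in the same order in the primary library. Its log2 ratio of G2/M over S was 1.57 (95% interval 1.42 to 1.72) in the relapsed and 1.65 (1.44 to 1.86) in the primary library. The kinase subunit Cdc7 was level between the states, with log2 ratios of -0.09 (-0.26 to 0.08) in the relapsed and -0.07 (-0.28 to 0.14) in the primary library. Rrm1, Rfc4, Pold2 and Gins1 also kept much of their level in G2/M cells, at 1.07-, 0.90-, 0.85- and 0.94-fold of the S level in the relapsed and 0.89-, 0.89-, 0.85- and 0.72-fold in the primary library.

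Ung, the uracil DNA glycosylase that removes uracil from new DNA, had the lowest ratio. It stood at 30.0 CPM in G2/M cells, 249 CPM in S cells and 57.3 CPM in neither in the relapsed library, and at 43.6, 273 and 63.0 CPM in the primary library, a log2 ratio of G2/M over S of -3.05 (-3.16 to -2.95) in the relapsed and -2.64 (-2.76 to -2.53) in the primary library. It was the only member compared whose G2/M level lay under that of cells in neither state, in both libraries, at 0.52-fold in the relapsed and 0.69-fold in the primary library. Cdc6 followed at 10.7 CPM in G2/M and 46.7 CPM in S cells of the relapsed library and 17.8 CPM in G2/M and 66.7 CPM in S cells of the primary library. Chaf1b, Cdt1, Hells and Mcm3 came next, each at 0.38- to 0.42-fold in G2/M over S in either library. The 6 lowest ratios thus held 2 of the 5 licensing genes (Cdc6 and Cdt1), while Orc6, another licensing gene, was at 0.80-fold in relapsed and 0.76-fold in primary cells. The median log2 ratio by role was lowest for chromatin assembly and remodelling (-1.29 in both libraries), licensing (-1.11 relapsed, -1.25 primary) and the MCM helicase (-1.03 relapsed, -1.31 primary), against -0.33 relapsed and -0.57 primary for helicase activation. Within the MCM helicase Mcm7 lay apart, at 0.845-fold of its S level in relapsed and 0.661-fold in primary G2/M cells, where the other 5 subunits were at 0.41- to 0.52-fold in relapsed and 0.37- to 0.45-fold in primary cells.

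A finer grid of 5 windows of the 2 scores was also used: neither, the S list only above 0, both lists above 0 with S higher, both with G2/M higher, and the G2/M list only. Summed member RNA through these windows was 1385, 4619, 6312, 4212 and 2425 CPM in the relapsed library and 1686, 5490, 7568, 5301 and 2646 CPM in the primary library. The middle window was thus highest in both tumours, and it was the peak of 37 members in the relapsed and 39 in the primary library. The window of the peak was the same in both libraries for 38 of the 42 genes, the other 4 being Orc1, Rfc4, Ung and Rrm1. Ung and Orc1 were highest in the S list only window in relapsed cells. Ung had 57.3, 254, 243, 38.4 and 18.6 CPM through the windows in relapsed cells, and 63.0, 263, 281, 61.4 and 29.1 CPM in primary cells. Rrm2 was at 33.1, 214, 475, 311 and 157 CPM in relapsed and 33.4, 202, 516, 440 and 194 CPM in primary cells. Dbf4 was highest in the last window in both, at 13.5, 28.3, 54.3, 110 and 137 CPM in relapsed and 10.4, 25, 32.7, 85.8 and 95.5 CPM in primary cells. The windows order cells by score and are not time.

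**Figure D2:**
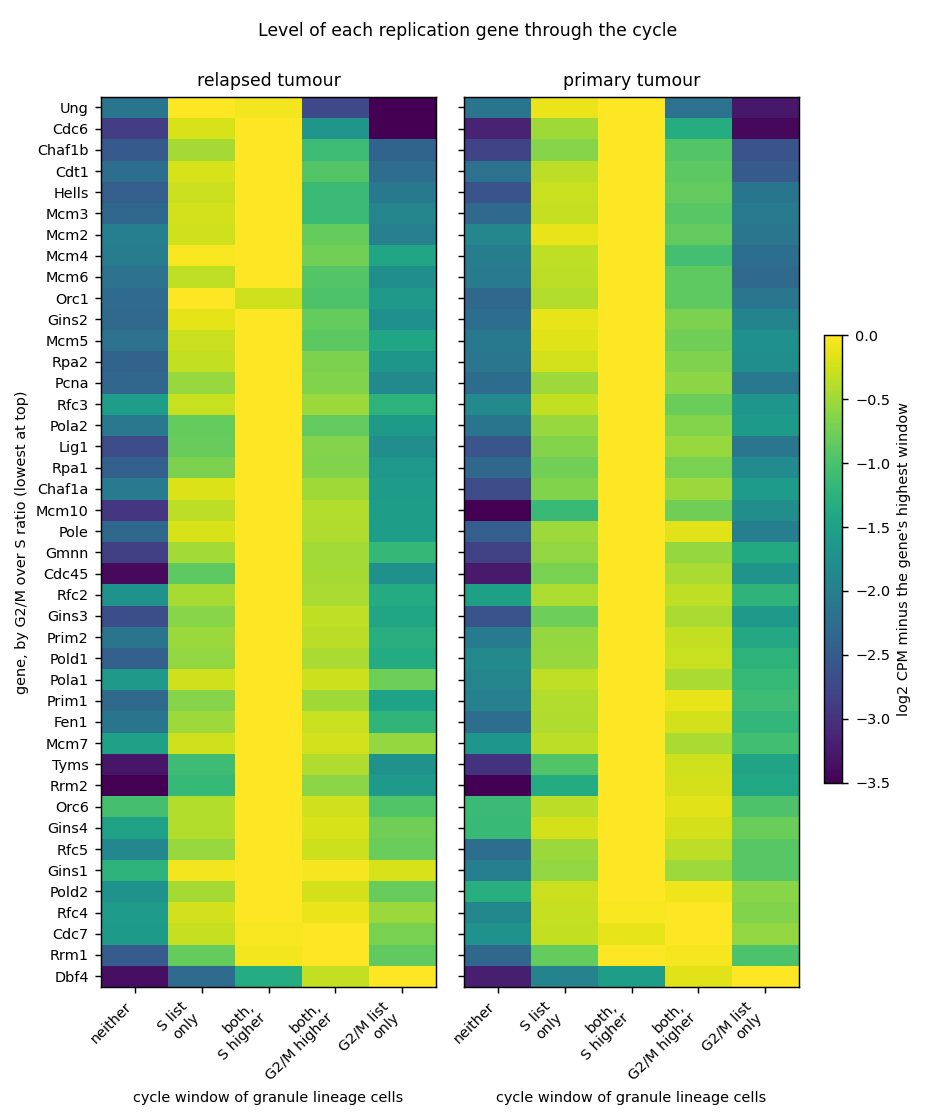
Each row is a gene and each column a cycle window of granule lineage cells, in the relapsed (left) and primary (right) tumour; color is the log2 CPM minus that of the gene's highest window, so yellow marks the peak. The middle window is the peak of 37 genes in the relapsed and 39 in the primary tumour, Ung and Cdc6 at the top are lowest in the last window, and Dbf4 at the bottom peaks there.

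Per cell, members were seen widely in S cells. At 3000 UMIs each, the median S cell held UMIs of 11.5 of the 42 genes in the relapsed library and 13 in the primary library, against 8 in G2/M cells of both libraries and 2 and 3 in cells of neither state of the relapsed and primary libraries. Cells with no member UMI made up 0.230% of relapsed and 0.585% of primary S cells, and 12.1% of relapsed and 6.35% of primary cells of neither state. Unthinned, the median S cell held UMIs of 21 members in the relapsed and 22 in the primary library.

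The 41 further replication genes were less bound to the S state. Of those with at least 50 UMIs in both states, 34 of 37 in the relapsed and 36 of 38 in the primary library were above 1 in S over neither, and 19 and 23 at least 2-fold, with median log2 ratios of 1.20 in relapsed and 1.47 in primary cells. Of all genes, 47.6% in the relapsed and 51.4% in the primary library were above 1, and 3.77% and 4.63% at least 2-fold. The extremes are named after their values were seen. The highest were Tk1, thymidine kinase, in relapsed cells (log2 3.59) and Asf1b, a histone chaperone, in primary cells (log2 3.53). Rrm2b, the p53-inducible small subunit of ribonucleotide reductase, was the lowest in relapsed cells at -0.87, set against 3.37 for Rrm2 there.

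Between the tumours, the members taken as a whole differed little over all lineage cells. Within each state their median ratio of relapsed over primary lay under that of all genes. Over all cells 18 of 42 members were higher and 24 lower in relapsed cells, where 40.4% of 11223 genes were higher, with a median log2 ratio of -0.09 against -0.11 over all genes. At least 1.5-fold higher were 3 members (Chaf1b, Dbf4 and Orc1), as were 9.92% of all genes, and 1.5-fold lower was Gins2 alone, as were 16.5%. Within S cells 6 of 41 were higher and 35 lower, where 39.1% of 8334 genes were higher, with a median of -0.30 against -0.12 over all genes. Of these, 9 were at least 1.5-fold lower, as were 15.2% of all genes, and none was 1.5-fold higher, as were 8.02%. Within G2/M cells 15 of 42 were higher and 27 lower, where 40.8% of all genes were higher. The median was -0.25 there, against -0.10 over all genes. Of the members, 1 was at least 1.5-fold higher (9.07% of all genes) and 4 lower (15.9%). Within neither 7 of 40 were higher and 33 lower, where 44.1% of all genes were higher. The median was -0.24 in that state, against -0.07 over all genes. Here 1 member was at least 1.5-fold higher (10.8% of all genes) and 8 lower (13.5%). The larger share of cycling cells and the lower level within a state thus stood side by side in the relapsed library. Depth, clusters and tumour all differ between these 2 libraries and cannot be told apart.

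**Figure D3:**
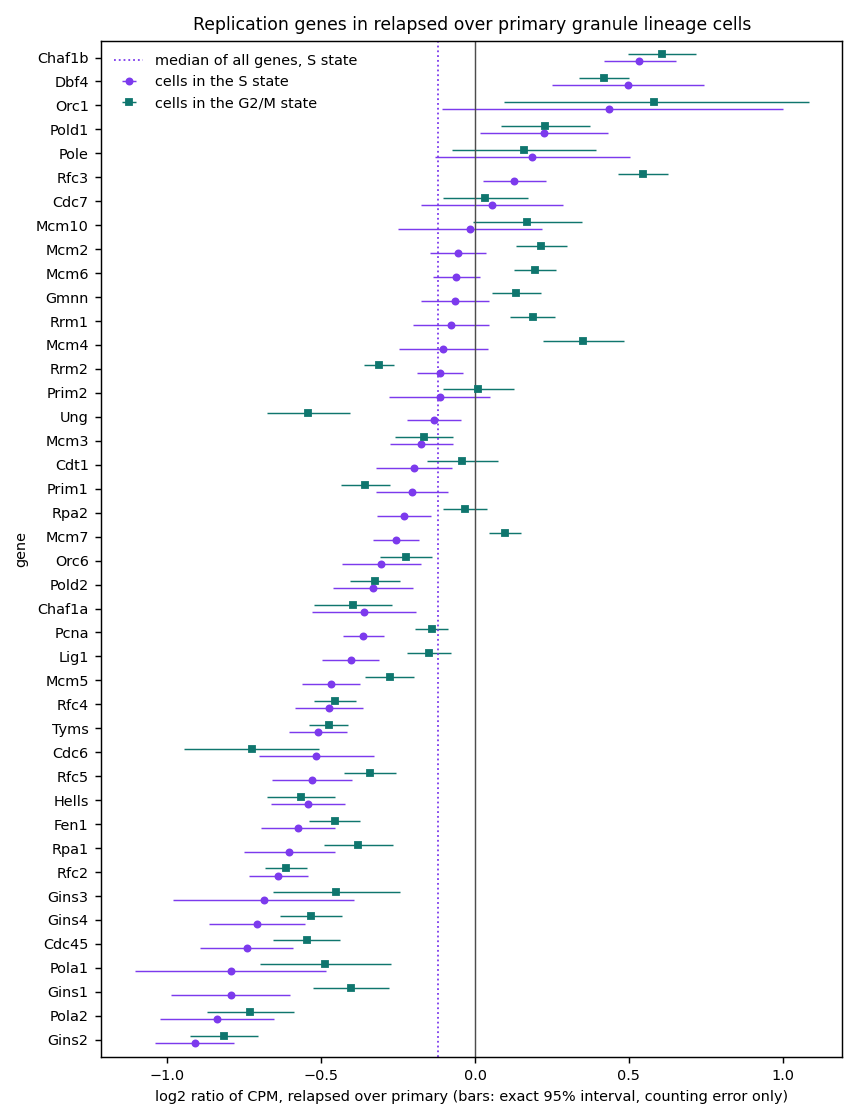
Log2 ratio of CPM in relapsed over primary granule lineage cells for each gene, within the S state (purple circles) and the G2/M state (green squares), with exact 95% intervals of counting error; the dotted line is the median of all genes in the S state, -0.12. Most S-state points lie left of 0, Gins2 lowest at -0.91, while Chaf1b and Dbf4 lie to the right in both states.

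Chaf1b, a chromatin assembly subunit, had the highest ratio of relapsed over primary cells: 183 CPM in relapsed and 126 CPM in primary S cells, a log2 ratio of 0.53 (0.42 to 0.65), and 85.0 CPM in relapsed and 49.3 CPM in primary cells over all states (log2 0.78, 0.71 to 0.86). Its partner Chaf1a, in the same complex, was at 61.0 CPM in relapsed and 78.3 CPM in primary S cells. Dbf4 was at 41.1 CPM in relapsed and 29.1 CPM in primary S cells (log2 0.50, 0.25 to 0.74). Rfc3 was at 202 CPM in relapsed and 184 CPM in primary S cells (log2 0.13, 0.03 to 0.23), and at 129 CPM in relapsed and 88.4 CPM in primary G2/M cells. Pold1, the catalytic subunit of the lagging-strand polymerase, was at 50.9 CPM in relapsed and 43.6 CPM in primary S cells (log2 0.22, 0.02 to 0.43), though at 11.3 CPM in relapsed and 14.3 CPM in primary cells of neither state. Chaf1b, Dbf4 and Rfc3 were higher in relapsed cells of every state, as were Orc1, Cdc7 and Pole with intervals in the S state that span 0 (Orc1 on under 50 UMIs in the primary library). Over all states high ratios were also those of Orc1 (log2 0.67, 0.35 to 1.00, from 4.19 CPM in relapsed and 2.63 CPM in primary cells), Mcm10 (0.41, 0.28 to 0.55) and Pole (0.39, 0.22 to 0.56). Within the states the log2 ratio of Mcm10 was -0.02 (-0.25 to 0.22) in S and 0.17 (-0.01 to 0.35) in G2/M cells. Only in cells of neither state did its interval lie above 0 (0.53, 0.04 to 1.02).

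The GINS complex and its helicase partner were lower in relapsed cells. Gins2 was at 86.2 CPM in relapsed and 162 CPM in primary S cells, a log2 ratio of -0.91 (-1.04 to -0.78), and Gins1, Gins3 and Gins4 had ratios of -0.79, -0.69 and -0.71. Cdc45 was at 65.7 CPM in relapsed and 110 CPM in primary S cells (-0.74, -0.89 to -0.59). All 4 GINS genes were thus lower, and none of their intervals reached 0. In the S state the intervals of 28 members lay below 0, those of 4 above 0, and those of 10 spanned 0. An interval below 0 was therefore common among the members and not particular to GINS. Pola2, the accessory subunit of the primase polymerase, was at 43.0 CPM in relapsed and 76.9 CPM in primary S cells (-0.84, -1.02 to -0.65). Pola1 was at 15.8 CPM in relapsed and 27.4 CPM in primary S cells, and Rfc2 at 168 CPM in relapsed and 261 CPM in primary S cells, with log2 ratios of -0.79 and -0.64. Cdc6 was at 46.7 CPM in relapsed and 66.7 CPM in primary S cells. The MCM helicase genes differed less, with log2 ratios in the S state between -0.47 (Mcm5) and -0.06.

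The same genes were also read in other cell classes, in which cells of the S and G2/M states were pooled because few were in cycle. In astrocyte-like cells, the class that the bulk sort was meant to hold, the members summed to 2759 CPM in 13 cycling cells and 512 CPM in 56 cells of neither state in the relapsed library, and to 2923 CPM in 15 cycling and 936 CPM in 123 other cells in the primary library. In oligodendrocyte precursor-like cells the sums were 3787 CPM in 11 cycling and 856 CPM in 23 other cells of the relapsed library, and 1795 CPM in 24 cycling and 751 CPM in 184 other cells of the primary library. Microglia and macrophage-like cells of the primary library had 2451 CPM in 34 cycling and 543 CPM in 181 other cells. Cycling cells of each of these classes carried more replication RNA than the other cells of the class, though in small numbers. The states were called from genes that cycle alongside the members, so this is a description with no test. Whether doublets with granule lineage cells remained among them was not tested. Of differentiating granule neuron-like cells, 3.90% of 590 relapsed and 2.99% of 603 primary cells were scored as cycling, and the rest summed to 659 CPM in relapsed and 841 CPM in primary cells. Astrocyte-like cells of neither state, at 512 CPM in the relapsed library, lay under these relapsed neuron-like cells, and at 936 CPM in the primary library above the primary ones, so no order between the classes is read from cells of neither state. Free RNA was not measured here. Median depth was 16217 UMIs in relapsed and 4977 in primary astrocyte-like cells, against 4452 in relapsed and 3746 in primary neuron-like cells. The oligodendrocyte precursor-like cells of the relapsed and primary libraries lay in different clusters, 20 and 16.

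**Figure D4:**
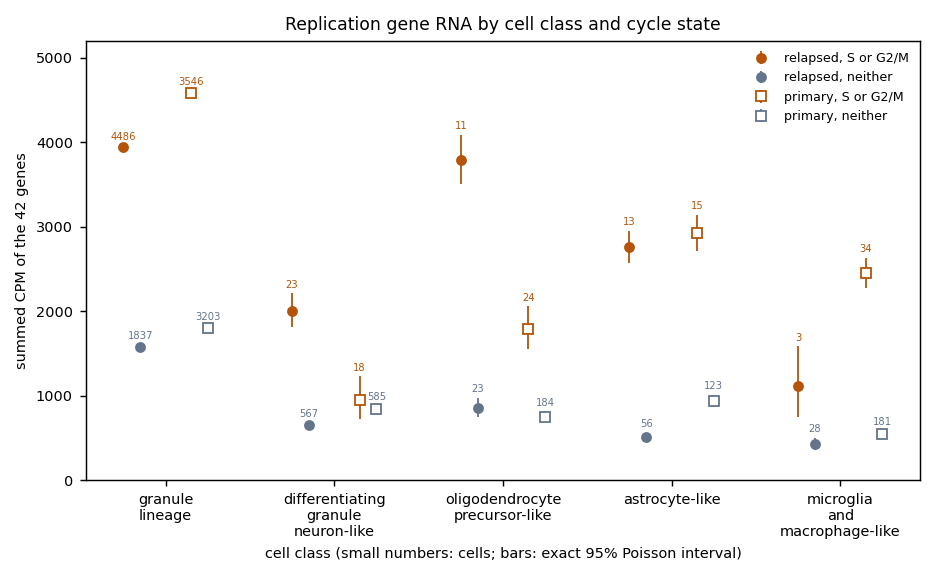
Summed CPM of the 42 genes in cells scored S or G2/M (brown) and neither (gray) of each cell class, for the relapsed (filled circles) and primary (open squares) tumour, with exact 95% Poisson intervals and the number of cells above each point. In each of the 5 classes drawn, cycling cells lie above cells of neither state in both libraries, with the primary differentiating granule neuron-like cells closest together (951 and 841 CPM, with overlapping intervals).

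Among astrocyte-like cells Pcna was the highest member in both libraries, at 96.8 CPM in relapsed (95% interval 80.2 to 116) and 112 CPM in primary cells (91.5 to 136). In the primary cells its interval overlapped those of Mcm7 (102 CPM, 82.5 to 125) and Rfc2 (96.8 CPM, 77.6 to 119). Pcna was also first in granule lineage and in microglia and macrophage-like cells of the primary library. Of the astrocyte-like cells, 18.8% of 69 relapsed and 10.9% of 138 primary cells were scored as cycling, with intervals of 10.4 to 30.1% and 6.21 to 17.3%. These intervals overlap. Rrm2 was second in relapsed astrocyte-like cells, at 62.6 CPM.

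Genes with a wide cycle range in tumour cells tended to be those with a large bulk difference. Across the 42 genes, the bulk log2 fold change of stroma B over stroma A and the mean log2 ratio of S over neither had a Pearson r of 0.54 and a Spearman rho of 0.52. The 14 genes with the highest S over neither ratio had a median bulk log2 fold change of 1.34, the 14 between them 0.92 and the 14 lowest 0.83. Dbf4 lay off this relation, with the highest bulk value and a mean log2 ratio of S over neither of 1.55. Against the mean log2 ratio of G2/M over neither, the bulk fold change had a Pearson r of 0.44 and a Spearman rho of 0.42. Dbf4 stood at 3.16 in that ratio. Against the ratio of G2/M over S the r was 0.04. Genes are not independent replicates, and these values come from different cells, so they are given as a description with no p. Orc1 and Gins3 enter with ratios that rest on under 50 UMIs in a state.

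**Figure D5:**
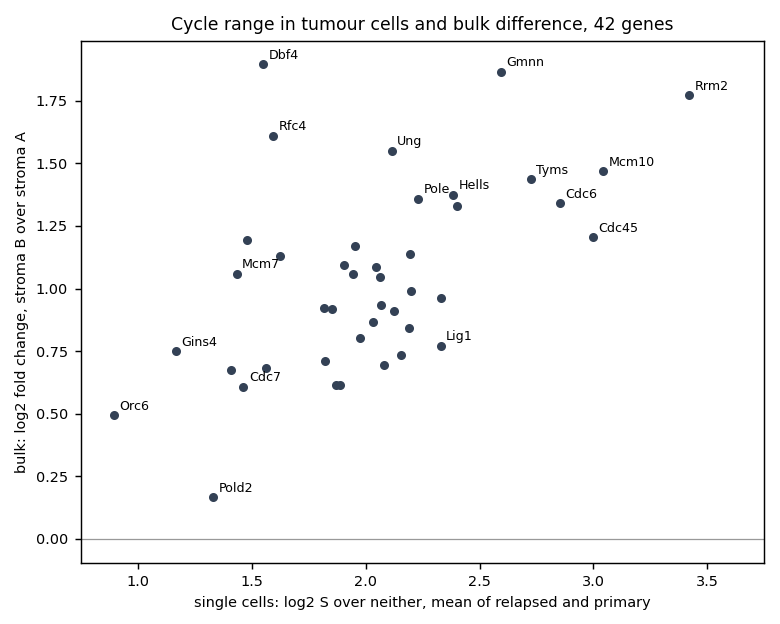
Bulk log2 fold change of stroma B over stroma A against the log2 ratio of S over neither in granule lineage cells (mean of the relapsed and primary libraries), 1 point per gene. Rrm2, Mcm10 and Tyms lie at the upper right, Pold2 and Orc6 at the lower left, and Dbf4 at the top with a mean ratio of 1.55 (r = 0.54 over 42 genes).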

How the data were processed

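For bulk RNA the authors deposited raw read counts by gene symbol beside FPKM. Which counter, annotation or strand rule made them is not given in the sources used here, so overlapping genes cannot be told apart. Cell Ranger, STAR, Seurat and the build mm10 appear, without role, in the submitters' processing notes. One stroma A column was matched to its sample on the shared start of its title. Genes were filtered with filterByExpr, scaled with TMM and tested with edgeR 4.0.16 (R 4.3.3), with Benjamini-Hochberg adjustment over all 14176 genes and a threshold of 0.05. CPM values are scaled with TMM factors, and SE is the log2 fold change over the root of F. DESeq2 1.42.0 was an alternative.

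Deposited single-cell matrices hold UMI counts. Cells with at least 500 genes and at most 10% mitochondrial UMIs passed. Scrublet in scanpy 1.11.5 marked 0 doublets by its own threshold, so the 6% with the highest scores were removed, which left 7369 relapsed and 8548 primary cells. Clusters (2000 variable genes, 30 components, 15 neighbours, Leiden resolution 1) were made without replication and cycle genes. A class name outside the granule lineage needed 3 markers at 4-fold, 20 CPM and 20% of cells, and the granule lineage 14 detected markers. Clusters under 0.65 of the median gene number stayed unnamed. These limits were set after seeing the data. Single-cell CPM is a gene's share of a state's pooled UMIs on the CPM scale.

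Genes were named as those past the bulk threshold, the 10 next by p, and the 6 highest and 6 lowest in each single-cell ratio, and other members beside them as partners in a complex or as exceptions, chosen after their values were seen. One further gene outside the list is not reported here. Statistics were tested on simulated data. The members and lists were chosen with earlier results of these data known. Settings changed were the normalization, test, filters, doublets, score threshold, depth and single libraries. Promoter sequences are from RefSeq.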

Additional observations from a re-analysis of the deposited data

Results flagged for a closer look

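Rrm1, the large subunit of ribonucleotide reductase, stood on opposite sides in the 2 tumours in its level in G2/M over S cells. The log2 ratio was 0.10 in relapsed cells (95% interval 0.01 to 0.19) and -0.17 in primary cells (-0.28 to -0.06), from 135 CPM in G2/M and 126 CPM in S cells of the relapsed library and 118 CPM in G2/M and 133 CPM in S cells of the primary library. The difference was not tested, since each tumour is 1 library, and 1 member, not 2, was above 1 in relapsed cells once scores had to pass 0.1.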

How the results depend on the processing

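In bulk, the count of members called was 3, with size factors of DESeq2 in edgeR also 3, with DESeq2's own test 22 and without a filter on low counts 6. It was 0 without stroma B replicate 1 and stroma A replicate 3, the pair that shares a title number and the libraries with the most and the least replication RNA (41 still fitted higher, 16 at an unadjusted p under 0.05), and 0 to 15 when 1 library at a time was left out. Over all genes it was 94, then 91, 1797, 227, 0 (1563 genes at an unadjusted p under 0.05) and 0 to 1342 under the same settings. Of 420 fold changes of single members under alternatives, 366 kept their direction and side of the threshold, 34 gained it, 18 lost it and 2 reversed, both Pold2, at -0.23 without the pair that shares a title number and -0.080 without stroma B replicate 1 (range -0.080 to 0.35 when 1 library at a time was left out). Fewer libraries entered these fits, and the cause was otherwise not tested. No paired analysis was possible because stroma B and stroma A share only 1 number in their titles. A left-out library can leave a group with 2 libraries.

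In single cells, the shares of relapsed cells in neither, S and G2/M became 31.7%, 19.8% and 48.5% without doublet removal, 32.5%, 20.3% and 47.1% with at least 1000 genes per cell, 43.9%, 13.3% and 42.8% with scores above 0.1, and 33.5%, 18.9% and 47.6% when thinned to 3000 UMIs. In the same settings and order the primary shares were 48.6%, 15.1% and 36.3%, then 48.3%, 15.8% and 35.9%, then 60.0%, 9.53% and 30.5%, then 46.5%, 15.4% and 38.1%. The members above 1 in G2/M over S were 1 in relapsed cells with scores above 0.1 and 2 in primary cells when thinned. The members lower in relapsed S cells numbered 31 to 35 over all settings, leaving out shared barcodes (chosen after seeing the data) included. Depth limits Orc1 most, with 120 UMIs in the smaller of its library totals.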
